A study of Mus musculus with 7 samples.

Results

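Nr5a1 and Nr5a2 encode the NR5A pair of orphan nuclear receptors, steroidogenic factor 1 (SF-1) and liver receptor homolog 1 (LRH-1). The question was where estrogen receptor beta (ERβ), the product of Esr2, was found on chromatin around these 2 genes in the mouse ovary. The genes were chosen by name, with earlier results of these data known. Each was examined across its GENCODE gene body (mm10, GRCm38) and 300 kb on each side, a span called its locus below. A site was a stretch of 200-bp windows with over 4-fold ChIP signal relative to input in at least 2 of 3 ChIP libraries, and it was assigned to the gene with the nearest protein-coding transcription start site (TSS). By this rule 2 sites belonged to Nr5a1 and 5 to Nr5a2, of 4869 sites in the genome.

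The data were ERβ ChIP-seq of whole ovaries of female C57BL/6J mice that express ERβ from the endogenous gene, with no treatment named in the labels. In ChIP-seq, cross-linked chromatin is sheared, fragments held by an antibody are sequenced, and their density is compared with that of sheared chromatin that was not precipitated (input). The 5 libraries comprised 3 ERβ ChIP replicates and 2 inputs, and the methods of the study state that each ChIP replicate pooled ovaries of several mice, from juvenile to adult. The 2 ERβ ChIP samples of ERβKO ovaries were not analysed here, so all values below are relative to input and hold no control for what the antibody binds without ERβ. In bulk tissue, more cells with ERβ at a position and more ERβ per cell cannot be told apart.

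The libraries were close in total signal, with genome means between 0.362 and 0.370 signal units on the autosomes and chromosome X, and the depth in reads is unknown from the tracks. Called against each other at over 4-fold, the inputs gave 69 and 245 sites in the whole genome and 0 in the Nr5a1 and Nr5a2 loci. These calls set 1 library over 1 input, unlike the site rule, which needs at least 2 ChIP libraries over the mean input. ChIP replicate 1 shared its track-name style with Input replicate 1, and ChIP replicates 2 and 3 shared theirs with Input replicate 2, so name style was not aligned with the ChIP and input groups.

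Both receptors bind DNA as monomers, at an extended element in which a few bases precede the sequence AGGTCA, and both activate genes of steroid hormone synthesis. SF-1 is needed for the formation of the gonads and adrenal glands. LRH-1 is expressed in granulosa and luteal cells of the ovary and is needed for ovulation and for the corpus luteum. ERβ is mainly a receptor of granulosa cells, and the estrogen response element (ERE) that estrogen receptors bind is an inverted repeat of the same AGGTCA-type sequence with a spacer. The element of the NR5A receptors and one arm of an ERE therefore overlap in letters.

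A few sequences carry the results on these genes and are given first. They are read 5′ to 3′ on the plus strand of GRCm38, whereas both genes lie on the minus strand. Capitals mark matches to the ERE half-site AGGTCA on either strand and to the ERE, written as GGTCA, any 3 bases and TGACC, where up to 2 of the 10 fixed bases may differ. The first lines show the 200 bp of the 3 sites with the highest folds, at chr2:38706821-38707020 (Nr5a1 site 1), chr2:38704471-38704670 (Nr5a1 site 2) and chr1:137177251-137177450 (Nr5a2 site 2).
Nr5a1 site 1: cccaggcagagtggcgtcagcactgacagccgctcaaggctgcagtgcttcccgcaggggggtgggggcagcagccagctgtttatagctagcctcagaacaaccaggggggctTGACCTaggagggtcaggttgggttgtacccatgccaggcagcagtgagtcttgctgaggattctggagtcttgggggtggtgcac
Nr5a1 site 2: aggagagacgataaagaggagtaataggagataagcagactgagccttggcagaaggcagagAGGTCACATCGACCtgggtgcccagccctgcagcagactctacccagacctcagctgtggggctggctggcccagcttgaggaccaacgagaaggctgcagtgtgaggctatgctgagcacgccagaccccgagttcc
Nr5a2 site 2: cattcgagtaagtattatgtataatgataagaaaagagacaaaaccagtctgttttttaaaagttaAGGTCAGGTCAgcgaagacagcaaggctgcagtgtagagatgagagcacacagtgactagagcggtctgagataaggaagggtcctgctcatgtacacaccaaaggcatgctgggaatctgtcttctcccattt
The next line shows the 200 bp of highest ChIP signal at Nr5a2 site 5, at chr1:137031911-137032110, because the signal there peaked beside the window of highest fold.
Nr5a2 site 5, 200 bp of highest signal: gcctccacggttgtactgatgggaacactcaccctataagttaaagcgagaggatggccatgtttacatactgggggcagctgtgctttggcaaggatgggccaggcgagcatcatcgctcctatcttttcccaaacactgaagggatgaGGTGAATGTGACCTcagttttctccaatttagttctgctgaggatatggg
The last lines show the best ERE of Nr5a2 site 4, at chr1:137129002-137129034, and the NR5A element of Nr5a2 site 1, at chr1:137204391-137204419, each with 10 bp on both sides and the element itself in capitals.
Nr5a2 site 4, ERE: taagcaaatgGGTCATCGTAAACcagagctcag
Nr5a2 site 1, NR5A element: ctggcttataTGACCTTGAtgctcatgtg

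Nr5a1 (ENSMUSG00000026751.14, chr2:38692656-38714542) spans 21.887 kb and has 2 protein-coding transcripts with separate start sites. Both of its sites lay inside the gene, in intron 4 of 6 of both transcripts, and they were 2.35 kb apart. Nr5a1 site 1 was 5.314 kb and Nr5a1 site 2 was 7.664 kb downstream of the nearest coding TSS, or 7.622 and 9.972 kb from the most 5′ one. At Nr5a1 site 2 the mean signal in the 200-bp window was 21.3, 25.8 and 30.0 in ChIP replicates 1, 2 and 3, against 1.015 and 0.814 in Input replicates 1 and 2. The corresponding folds over the mean input were 23.3, 28.2 and 32.8, with a mean of 28.1 ± 4.77 (SD, n = 3), which placed this site at rank 75 of 4869. At Nr5a1 site 1 the ChIP signal was 7.52, 10.1 and 11.2, and the inputs were at 0.552 and 0.616. Its folds were 12.9, 17.3 and 19.1, with a mean of 16.4 ± 3.20 (SD, n = 3) and rank 370. At both Nr5a1 sites ChIP replicate 1 was the lowest of the ChIP libraries and replicate 3 the highest, and every ChIP library was far above both inputs. These folds chose the sites and are a description.

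Nr5a2 (ENSMUSG00000026398.14, chr1:136842571-136960448) spans 117.878 kb and has 5 protein-coding transcripts, each with its own start site. Its 5 sites showed another arrangement. None lay in the gene or in any protein-coding transcript, whereas overlap with non-coding transcripts was not checked. All were upstream, spread over 172.67 kb of sequence from 71.3 kb to 244 kb before the most 5′ TSS. Numbered from the farthest to the nearest, sites 1 to 5 were 244, 217, 182, 169 and 71.3 kb upstream. The next protein-coding TSS on that side, of Ptprc, was 1214.79 kb from the gene body, whereas the nearest annotated TSS of any kind to each of the 5 sites was that of an snRNA gene, Gm25609 or Gm23763. Assigned to the nearest TSS of any transcript, Nr5a2 therefore had 0 sites and Nr5a1 still had 2, and no Nr5a2 site lay within 50 kb of a coding TSS of the gene.

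**Figure D1:**
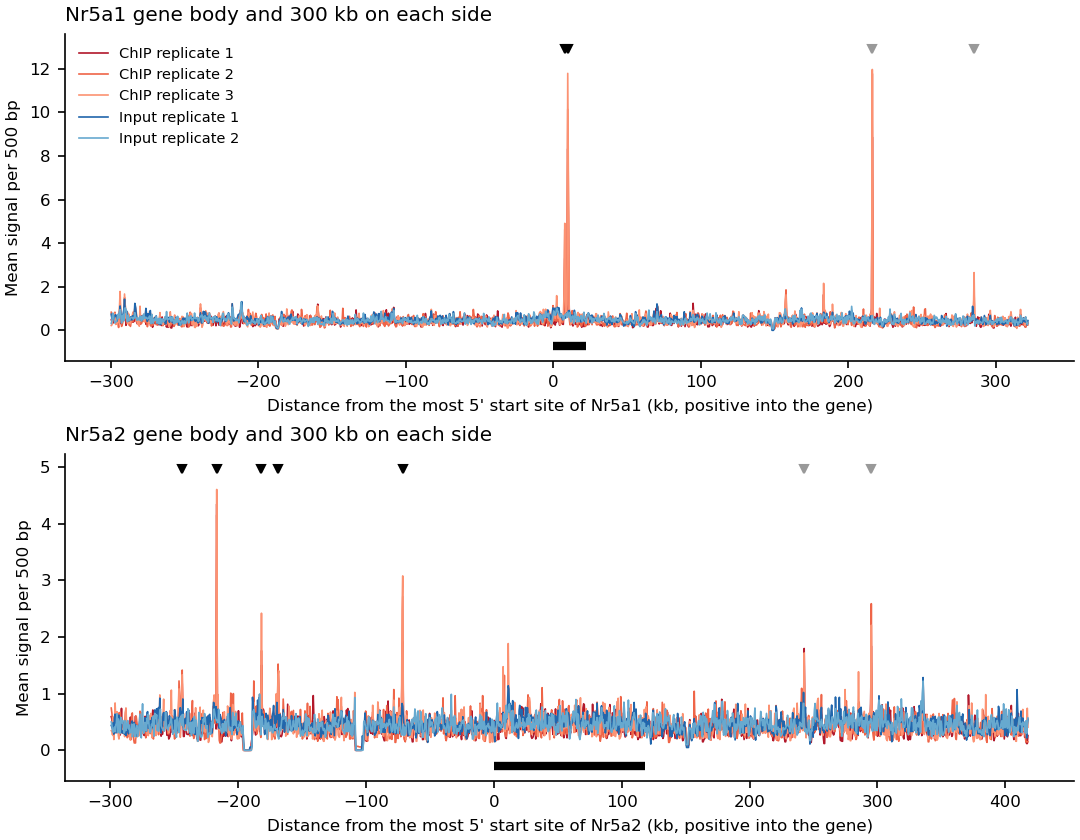
Mean ChIP-seq signal in 500-bp bins (signal units, linear axis) of the 3 ERβ ChIP libraries (reds) and 2 inputs (blues) against the distance in kb from the most 5′ start site of Nr5a1 (top) and Nr5a2 (bottom). Black bars are the gene bodies, black triangles the sites assigned to each gene and grey triangles sites of neighbouring genes: the Nr5a1 sites fall within the gene and the 5 Nr5a2 sites lie upstream of it.

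The Nr5a2 sites differed widely in strength. Nr5a2 site 2, at chr1:137177251-137177450, was the strongest, where ChIP replicates 1, 2 and 3 had a signal of 8.51, 7.56 and 8.32 and the inputs were at 0.445 and 0.450. Its folds of 19.0, 16.9 and 18.6 gave a mean of 18.2 ± 1.12 (SD, n = 3) and rank 292 of 4869, and here ChIP replicate 1 was the highest. Nr5a2 site 4, at chr1:137128871-137129070, had folds of 7.22, 7.80 and 9.91 (mean 8.31 ± 1.41, SD, n = 3). Nr5a2 site 5, at chr1:137031661-137031860, had folds of 4.46, 6.15 and 7.13 (mean 5.91 ± 1.35, SD, n = 3). The remaining pair was close to the limit of the rule and passed it in ChIP replicates 2 and 3 only. Nr5a2 site 3, at chr1:137142201-137142400, had folds of 3.61, 4.12 and 5.51 (mean 4.41 ± 0.983, SD, n = 3). Nr5a2 site 1, at chr1:137204331-137204530, had folds of 3.24, 4.05 and 4.80 (mean 4.03 ± 0.776, SD, n = 3). Ordered by mean fold over both genes, Nr5a1 site 2 stood first, and Nr5a2 site 2 and Nr5a1 site 1 followed with overlapping replicate values. Nr5a2 sites 4 and 5 had adjoining ranges that did not overlap, and the values of sites 5, 3 and 1 overlapped one another.

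**Figure D2:**
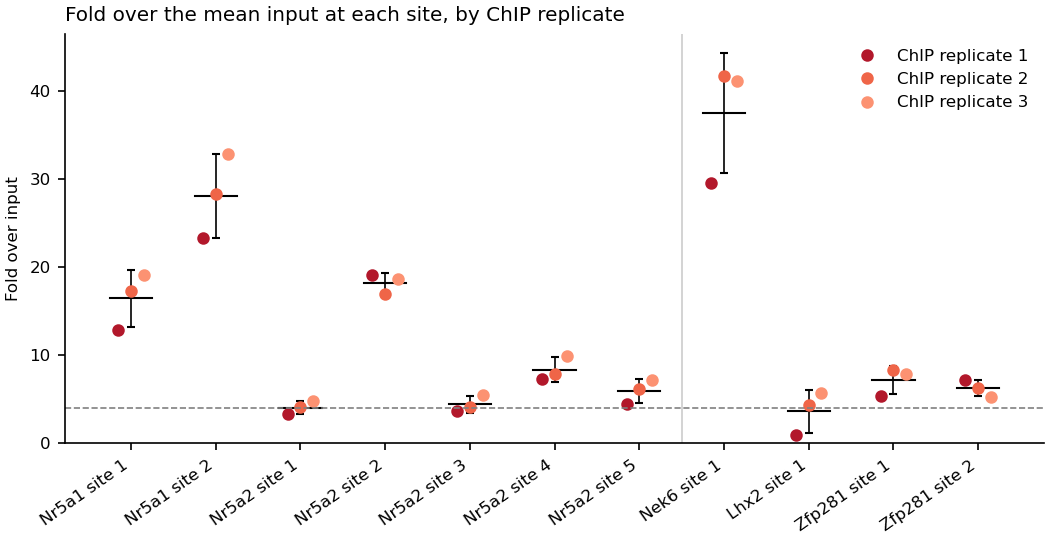
Fold of the ChIP signal over the mean input (linear axis from 0) at the 7 sites of Nr5a1 and Nr5a2 and, right of the vertical line, at the 4 other sites in their loci. Points are ChIP replicates, black lines the mean and SD (n = 3), and the dashed line the 4-fold limit: Nr5a2 sites 1 and 3 straddle it, whereas both Nr5a1 sites and Nr5a2 site 2 are above 12.

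At Nr5a2 sites 4 and 5 the inputs moved the folds. Input replicate 1 was 2.97 and 2.63 times Input replicate 2 there, while the ratio lay between 0.895 and 1.685 at the other 5 sites. The track of Input replicate 2 held a single averaged segment of 1000 bp with the value 0.20 across the centre of site 4 and of 840 bp with the value 0.27 across that of site 5, against 179 and 192 bp in Input replicate 1. Over Input replicate 1 alone, the mean folds were 5.55 at site 4 and 4.08 at site 5. With Input replicate 2 alone they were 9.0 and 7.90. Because this input was below its genome mean of 0.367 at both sites, that mean was the divisor, and folds over its own values would be higher. At Nr5a2 site 2 the mean folds over the single inputs were 18.3 and 18.1.

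The sites also differed in width. The maximum of the mean ChIP signal was taken within 200 bp of the site centre, and the width was the stretch above 50% of it. This width was 200 and 220 bp at Nr5a1 sites 1 and 2 and 210 bp at Nr5a2 site 2. It was 260, 290, 360 and 480 bp at Nr5a2 sites 4, 3, 1 and 5. At Nr5a2 site 5 the 200 bp of highest signal extended beyond that range, so its 480 bp may refer to a value below the peak. In the 200 bp of highest signal at Nr5a2 site 5, which began 250 bp from the window of highest fold, the ChIP replicates had 2.88, 4.25 and 5.21 signal units, compared with 2.18, 3.01 and 3.50 in the called window. Input replicate 1 rose as well, to 1.16 from 0.710, so the fold was 5.75 ± 1.64 (SD, n = 3) and little different from that of the called window. At the other 6 sites the window of highest signal lay within 50 bp of the called one, and in the genome 1.42% of sites had a distance over 100 bp.

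**Figure D3:**
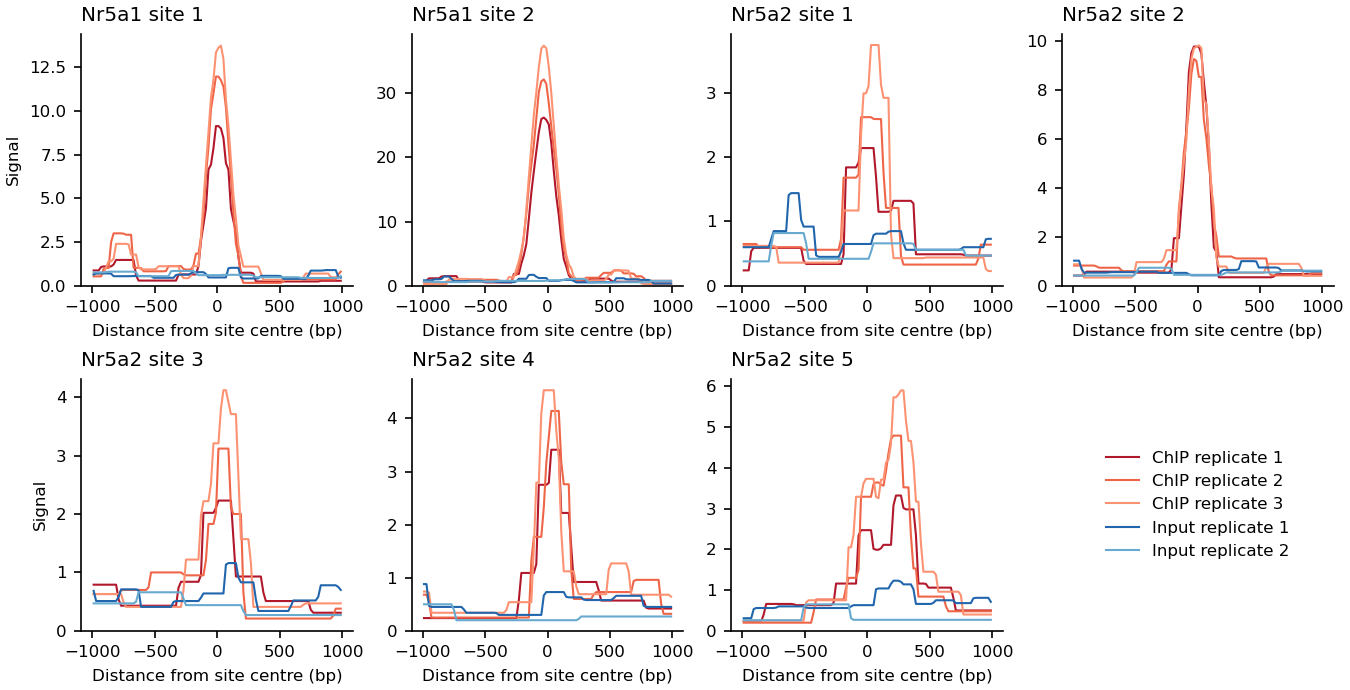
Signal (linear axes from 0, each panel on its own scale) within 1000 bp of the centre of each site of Nr5a1 and Nr5a2 in the 3 ChIP libraries (reds) and 2 inputs (blues), in genome orientation. Nr5a1 sites 1 and 2 and Nr5a2 site 2 are narrow, and the signal at Nr5a2 site 5 has its maximum beside the called centre.

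How common such an arrangement was is seen from all genes. Of 21646 protein-coding genes, 3234 (14.9%) had at least 1 assigned site. The 2 sites of Nr5a1 were matched or exceeded by 965 genes (4.46%) and the 5 sites of Nr5a2 by 67 genes (0.310%). The count of 5 rests on the rule, since Nr5a2 had 3 sites without ChIP replicate 2, without ChIP replicate 3, without Input replicate 2 or when all 3 ChIP libraries had to pass, and 1 at 8-fold. Genes with long flanks free of other coding TSSs are assigned sites over a longer stretch, and the distance to Ptprc gives Nr5a2 such a flank. Counted instead over gene body and 300 kb on each side, whatever the assignment, the Nr5a1 locus held 4 sites and the Nr5a2 locus 7, against a median of 1 over 21728 loci. At least 4 sites were in 17.7% of loci and at least 7 in 3.14%. The 200-bp windows were taken at 10-bp steps, so neighbouring ones overlap and are not independent. The share of them past the rule was 0.224% in the Nr5a1 locus (139 of 62169) and 0.241% in the Nr5a2 locus (173 of 71767), beside 0.0429% in the genome. By the fold of their strongest site, Nr5a1 was at rank 74 and Nr5a2 at rank 270 of the 3234 genes.

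The other sites in the loci belonged to 3 neighbours. Nek6, a mitotic kinase gene in the Nr5a1 locus, had 1 site at chr2:38498161-38498360 with folds of 29.5, 41.7 and 41.1 (mean 37.4 ± 6.85, SD, n = 3), which stood at rank 18 of 4869 and above both Nr5a1 sites. Lhx2, a LIM homeobox gene, had 1 site at chr2:38429041-38429240 whose folds of 0.883, 4.36 and 5.63 passed the rule through ChIP replicates 2 and 3 only. Zfp281, a zinc finger gene beyond the 3′ end of Nr5a2, had 2 sites with mean folds of 7.15 ± 1.61 and 6.22 ± 0.933 (SD, n = 3). Nr6a1, the orphan receptor gene next to Nr5a1, had 0 assigned sites, and so did Psmb7 on its other side.

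Windows just under the rule were found as well. The one nearest to passing by the second-highest fold was at chr2:38531271-38531470 near Nek6 (3.70, 3.92 and 5.04), and one at chr2:38874241-38874440, nearest to Nr6a1, had folds of 3.83, 2.84 and 3.83. Upstream of Nr5a2, a window at chr1:137206441-137206640, 246 kb from the gene and next to Nr5a2 site 1, had folds of 3.39, 4.62 and 3.89. Within Nr5a1, a window 6.044 kb downstream of the nearest coding TSS, between both sites, reached 1.97, 3.69 and 3.15.

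ChIP and input were then compared by a test across the genome that did not use the site rule. The test was limma on log2(signal + 0.5) in 1-kb windows, with Benjamini-Hochberg adjustment over all 2430659 windows, and fold changes from it are on that scale and understate changes where signal is low. It uses the same contrast as the rule, so the windows that hold sites and the count over each locus are both a description. The genes were chosen with earlier results of these data known, so a share above that of the genome is no independent evidence. At an adjusted p under 0.05, 3 of 621 windows (0.483%) in the Nr5a1 locus and 3 of 705 (0.426%) in the Nr5a2 locus were higher in ChIP, beside 0.0957% of all windows. In both loci 0 windows were lower by this limma test, beside 0.00267% of all windows, while at an unadjusted p under 0.05, 57 windows (9.18%) were lower and 9 higher in the Nr5a1 locus, 33 (4.68%) lower and 11 higher in the Nr5a2 locus, and 3.33% lower and 1.90% higher in the genome. The median log2 fold change was -0.10 in the Nr5a1 locus, -0.07 in the Nr5a2 locus and -0.01 over all windows.

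All 6 higher windows held a site. In the Nr5a1 locus they were those of Nr5a1 site 2 (log2 fold change 2.64, SE 0.26, limma adjusted p = 5.46e-08), of Nr5a1 site 1 (1.52, SE 0.21, adjusted p = 4.64e-05) and of the Nek6 site (2.62, SE 0.24, adjusted p = 1.31e-08). In the Nr5a2 locus they were those of Nr5a2 site 2 (1.48, SE 0.20, limma adjusted p = 2.22e-05), of Nr5a2 site 5 (0.97, SE 0.19, adjusted p = 0.00852) and of the first Zfp281 site (0.88, SE 0.18, adjusted p = 0.0177). The windows at the centres of Nr5a2 sites 3, 4 and 1 had log2 fold changes of 0.78, 0.55 and 0.59 and did not pass (limma adjusted p = 0.0725, 0.439 and 0.495), and site 4 straddles a window border. The 3 windows of the Nr5a1 locus passed in each fit that left out 1 library. In the Nr5a2 locus the count was 1, the window of site 2, without ChIP replicate 2 and without Input replicate 2, where the window of site 5 had an adjusted p of 0.132 and 0.999999.

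The promoters of the genes, from 1 kb upstream to 100 bp downstream of each coding TSS, held no site and no call. At the most 5′ TSS of Nr5a1 the ChIP signal was 0.341, 0.798 and 0.471 and the input signal 0.918 and 0.597, so the groups overlapped (log2 fold change -0.29, SE 0.22, limma adjusted p = 0.613). At that of Nr5a2 it was 0.363, 0.274 and 0.285 in ChIP and 0.471 and 0.432 in the inputs, with no overlap (log2 fold change -0.24, SE 0.10, limma adjusted p = 0.535). The median over 54052 promoters was -0.14, and both genes lay within their SE of it. The 5 other coding start sites of the genes had log2 fold changes from -0.29 to 0.07 and adjusted p of at least 0.535. By the same limma fit 1 promoter (0.00185%) was higher and 6 (0.0111%) were lower in ChIP, against 815 and 4113 at an unadjusted p under 0.05. The strongest sites of Gata6, Amh and Gata4 lay 0.054, 0.253 and 0.389 kb upstream of a coding TSS, within such windows. Promoters with a strong site thus went uncalled, and a missing call does not decide whether ERβ was present. In a narrower window of 250 bp upstream to 50 bp downstream the value of Nr5a2 was 0.05 (adjusted p = 0.949), so its direction depended on the window.

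Away from the sites, ChIP signal in the loci was somewhat below input. With sites and 1 kb around them left out, the mean over the Nr5a1 locus was 0.395, 0.424 and 0.456 for ChIP, below the input values of 0.497 and 0.478, a ratio of 0.872. Over the Nr5a2 locus the ChIP means were 0.393, 0.417 and 0.425 and the input means 0.464 and 0.446, a ratio of 0.905. Leaving out the sites removed windows chosen for high ChIP signal, so these means are a description without a test. The same means were not taken over the rest of the genome, so the ratios cannot be called particular to these loci. With the sites kept in, the Nr5a1 locus had means of 0.417, 0.453 and 0.488 for ChIP, which overlapped the input means of 0.499 and 0.480, and the Nr5a2 locus had 0.404, 0.429 and 0.440 for ChIP against 0.468 and 0.446, without overlap.

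Motifs under the sites were read next, since sequence had not been used to choose them. Each motif was searched on both strands of the 200 bp of each site and set beside its share among all 4869 sites and among all 200-bp windows of the genome. An ERE with at most 2 mismatches was in 2 of the 7 sites, beside 67.9% of all sites and 6.68% of genome windows. The half-site AGGTCA, which every ERE with an intact arm and a leading A also contains, was in 6 of 7, beside 58.5% and 11.1%. The GATA motif (AGATAA or TGATAA), bound by the granulosa cell factors GATA4 and GATA6, was in 5 of 7, beside 29.7% and 24.1%. It was in 4 of 7 when the 200 bp of highest signal was searched (29.5% of all sites) and in 6 of 7 in 400 bp (44.5%). The NR5A motif (TCAAGGTCA or CCAAGGTCA, which contains the half-site) was in 1 of 7, beside 7.15% and 0.693%. Only exact matches counted for it, whereas the ERE was allowed 2 mismatches, so the shares of these motifs cannot be compared. The study, with a motif model of its own, reports the NR5A motif at a share close to that of the ERE. The AP-1 motif TGACTCA and the FOXO motif TGTTTAC were in 0 of 7, beside 6.63% and 4.76% of all sites. With 7 sites these counts are a description of these sequences, and a match is not evidence of a bound factor.

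In the called windows, the strongest site was also the one with the closest ERE. At Nr5a1 site 2 the element differed from the ERE by T9C, counted from 1 at its 5′ end on the plus strand, and its middle was 31 bp from the site centre and 1 bp from the centre of the 200 bp of highest signal. Among all sites, 1297 had 1 mismatch at best, with a median fold of 6.81, and 32 of them had a fold at or above that of Nr5a1 site 2, itself included. Nr5a2 site 5 held an element with 1 mismatch too (C4G), but only in its 200 bp of highest signal, where the FOXO motif was present as well, whereas its called window had 3 mismatches at best. Searched in the 200 bp of highest signal, a choice made after seeing the profiles, 3 of the 7 sites held an ERE with at most 2 mismatches, beside 68.3% of all sites. At Nr5a2 site 4 the best element had the differences G10A and C12A.

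Nr5a1 site 1 and Nr5a2 site 2 had high folds without such an element. Their best ERE had 3 mismatches (T3G, C4G and A5G at Nr5a1 site 1, all in one arm, and G2C, T3A and C13T at Nr5a2 site 2). Of 1268 sites in the genome with 3 mismatches at best, the median fold was 5.67, beside 7.45 for the 308 sites with an exact ERE, and 55 of them (4.34%) had a fold at or above that of Nr5a1 site 1 and 41 (3.23%) at or above that of Nr5a2 site 2. At Nr5a1 site 1 the arm that stayed intact formed a half-site 17 bp from the centre. At Nr5a2 site 2 a pair of half-sites overlapped by 1 base, 31 and 26 bp from the centre, with a GATA match on either side of them at 73 and 38 bp. In the called windows the NR5A motif was found at the weakest of the 7 sites alone, Nr5a2 site 1, 26 bp from its centre. The 200 bp of highest signal at this site also took in another NR5A match near its edge, 87 bp from the centre of that window. The best ERE of the called window, with T3C, C4T and A5T, shared its intact arm with the NR5A match in that window.

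**Figure D4:**
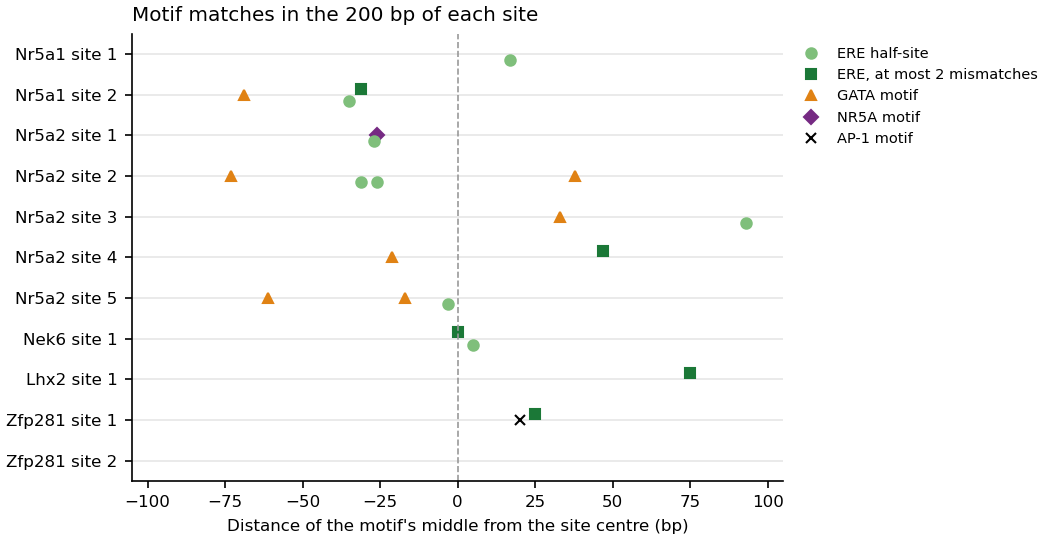
Positions of motif matches (symbols) in the called 200 bp of the 7 Nr5a1 and Nr5a2 sites and the 4 other sites in their loci, as the distance in bp of the motif's middle from the site centre on the plus strand. EREs with at most 2 mismatches are seen at Nr5a1 site 2 and Nr5a2 site 4 among the 7, and the only NR5A match in these windows is at Nr5a2 site 1, where a half-site overlaps it.

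The pair was also viewed within a list of 49 nuclear receptor genes that includes both members. Of these 49 genes, 18 (36.7%) had at least 1 assigned site, beside 14.9% of all protein-coding genes. In the list 9 genes had 2 or more sites, and together the genes had 35. Nr5a1 and Nr5a2 are counted in each of these numbers and hold 7 of the 35 sites. This list, too, was drawn up with earlier results of these data known. The 5 with the highest fold at their strongest site were Rara (retinoic acid receptor alpha, 46.7 ± 7.58, 3 sites), Nr5a1, Nr5a2, Pparg (a regulator of lipid metabolism, 15.7 ± 5.38, 4 sites) and Nr1i2 (the pregnane X receptor, 15.1 ± 0.866, 1 site), each as mean and SD over 3 ChIP replicates. The replicate values of Pparg overlapped those of Nr5a2 and of Nr1i2. Under the main rule, Nr5a2 and Pparg were the listed receptors with 4 or more sites.

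**Figure D5:**
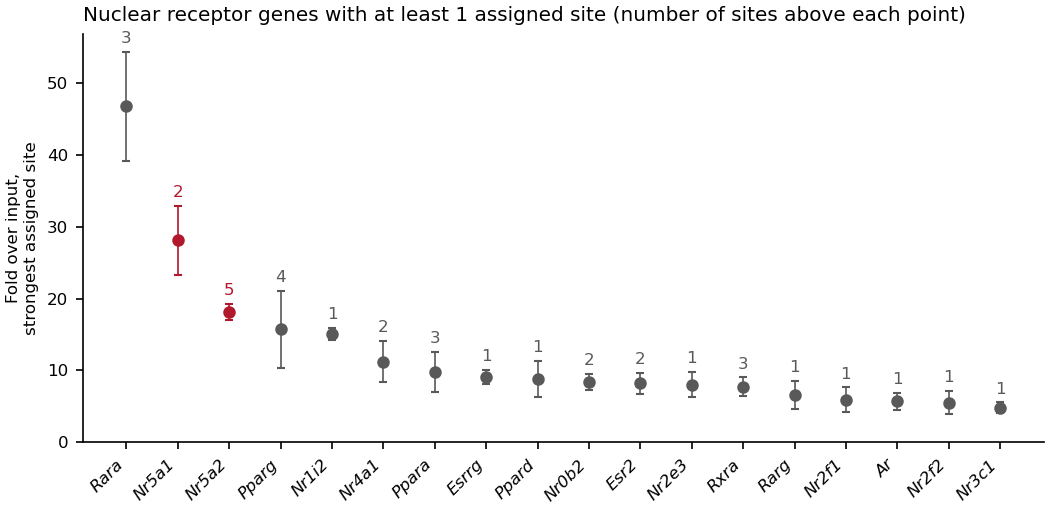
Fold over input (linear axis from 0) at the strongest assigned site of each of the 18 listed nuclear receptor genes that had a site. Points are means over 3 ChIP replicates, bars the SD and the digits above them the number of assigned sites: Nr5a1 and Nr5a2 (red) follow Rara by fold, and Nr5a2 has 5 sites against 4 of Pparg under the main rule, with 2 of the 5 past it in ChIP replicates 2 and 3 only.

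Of 22 listed partners and ovarian targets of the NR5A receptors, 15 (68.2%) had at least 1 assigned site and together they had 37, beside 14.9% of all protein-coding genes with a site. The 4 with the strongest sites were Foxl2 (a granulosa cell transcription factor, 28.5 ± 5.08), Gata6 (27.8 ± 4.59), Amh (anti-Müllerian hormone, 23.2 ± 7.96) and Gata4 (22.7 ± 3.62), each as mean and SD over 3 ChIP replicates. The strongest Gata6, Amh and Gata4 sites were within 0.389 kb of a coding TSS, unlike those of Nr5a1 and Nr5a2. The list was drawn up with earlier results of these data known, so its share is no independent evidence.

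The genes most like each receptor were those with the same number of sites and the closest log2 of the mean fold at the strongest site. For Nr5a1 they were Stk11ip, B3galt2 and Iqcm, out of 603 genes with 2 sites, with strongest folds of 28.1, 28.4 and 28.4. For Nr5a2 they were Igsf11, Mrps22 and Crim1, out of 34 genes with 5 sites, with strongest folds of 18.9, 20.6 and 21.4.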

How the data were processed

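ERβ ChIP-seq tracks of 3 ChIP and 2 input libraries were analysed, grouped by sample title. According to the methods and the submitters' processing notes, the authors aligned single-end reads to GRCm38 (mm10) with STAR, kept uniquely mapped reads and used HOMER. The deposited values are coverage signal, scaled by the authors to the same total in each library, averaged over segments of variable length (median 269 to 519 bp) and given without replicate pooling. The study gives aligned reads and sheared fragment sizes, but read numbers cannot be recovered from averaged values, so no counting interval was computed and the spread between libraries alone sets the precision. The fragment length used to build the tracks and the treatment of duplicates are not given in the sources used here.

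The mean signal was taken in 200-bp windows at 10-bp steps on the autosomes and X. A window passed at over 4 times the mean input, floored at its genome mean of 0.368, in at least 2 ChIP libraries. Windows within 200 bp formed 1 site, placed at the highest mean fold. Transcripts were those of GENCODE vM21 (GRCm38), and all track ends lay within the GRCm38 chromosomes. Promoters and those 1-kb windows whose mean signal reached 0.1 were compared on log2(signal + 0.5) with limma 3.58.1 in R 4.3.3 (trend, Benjamini-Hochberg adjustment). The study's test on read counts cannot be run on such values. Both procedures were tested on simulated data. The labels do not pair the samples by replicate number, and the main fit used no pairing. Deviations of ChIP and input libraries of the same number correlated at 0.04 and -0.01. With 2 inputs, whose deviations mirror each other, these values do not decide whether equal numbers share a pool, batch or day.

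Both genes were chosen by name. The members, the lists of nuclear receptors and NR5A partners, and the tests were chosen with earlier results of these data known. The text names both genes, every coding gene with a site in their loci, the 5 genes of each list with the strongest sites (1 of them is not reported here), receptors with 4 or more sites and the 3 most alike genes. Other genes next to the loci were named after their values were seen. Alternatives covered the fold, window, floor, input, merging, assignment, pseudocount, filter, replicate block and leaving out each library.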

Additional observations from a re-analysis of the deposited data

How the results depend on the processing

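Nr5a1 kept 2 sites under every alternative run. Nr5a2 had 1 site at 8-fold, 3 when all 3 ChIP libraries had to pass, 3 with 400-bp windows, 0 when TSSs of all transcripts were used and 0 within 50 kb of a coding TSS. Leaving out 1 library gave it 3 to 6 sites, with 3 without ChIP replicate 2, ChIP replicate 3 or Input replicate 2. The strongest folds were 18.5 (Nr5a1) and 11.4 (Nr5a2) in 400-bp windows, which average a narrow maximum over more sequence, and 25.6 to 33.5 and 17.8 to 18.8 with 1 library left out. Higher 1-kb windows numbered 1009 to 2541 in the genome and 1 to 4 in the Nr5a2 locus with 1 library left out, and were fewest in the genome without Input replicate 2 (1009), ChIP replicate 2 (1261) and Input replicate 1 (1363). The promoter value of Nr5a2 was reversed, at a log2 fold change of 0.050, in the narrower promoter, and the cause was not tested. The share of member sites with an ERE was 2 of 7 in 400 bp as well, an alternative chosen after seeing the data.

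With the replicate number as a block, which leaves ChIP replicate 3 without a partner, limma called 3427 windows higher and 3207 lower, in place of 2326 and 65. In that fit 3 windows were higher in the Nr5a1 locus and 4 in the Nr5a2 locus, and the promoter values were -0.26 and -0.22. The labels give no sign that equal numbers mark one animal pool, batch or day. Track-name style was shared by ChIP replicate 1 and Input replicate 1, and by ChIP replicate 2 and Input replicate 2. The correlations of their deviations, 0.04 and -0.01, do not decide the pairing, since the deviations of the inputs mirror each other.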
